A study of Homo sapiens with 5 samples.

Results

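The transcripts described here are the very long ones: genes whose reference transcript measured 12 kb or more. Of the 19716 genes with a read in at least 1 library, 186 met this length. Numbered zinc finger genes (ZNF704, ZNF469 and ZNF264) were left out by name, as antisense and LINC transcripts would have been, and 183 genes formed the set. Their lengths ran from 12021 bases to 109224 bases (TTN), with a median of 14083 bases against 2730.5 bases for all genes, and 16 members measured 20 kb or more. Length alone chose them, so none of the read values used below took part in the choice. Just below the limit stood PRTG, MAP1B and KCNMA1, the shortest of these with 11994 bases, and just above it SLC1A2, MGA and SLC16A7.

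Libraries of poly(A) RNA were made from HEK293T, a human embryonic kidney cell line, 1 for each of 5 groups. In 4 groups the cells were co-transfected with 5 sgRNAs against uPA (the gene PLAU) and a plasmid for catalytically dead Cas9 joined to blue fluorescent protein (dCas9-BFP). This fusion carried in addition the catalytic domain of DNMT1, DNMT3A or DNMT3B or, as a fusion without a methyltransferase, EGFP. The control cells received the plasmid pUC19, which encodes none of these. The labels give 1 µg of plasmid for every group. RNA was taken 48 h after transfection, and the labels describe a sort for BFP-positive cells, which leaves unclear how the pUC19 cells were sorted. The groups are called DNMT1, DNMT3A, DNMT3B, EGFP and pUC19 below. DNMT3A and DNMT3B are de novo DNA methyltransferases, while the full DNMT1 enzyme mainly copies methylation onto newly made strands. The authors reported more methylation at the uPA promoter with the DNMT3A and DNMT3B fusions, but not with the DNMT1 or EGFP fusions.

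Each library held between 26.2 M and 36.1 M uniquely mapped reads (M, 1000000). There was no second library of any group, so a test between 2 libraries compares those libraries and not the conditions. The target gene PLAU had 106 reads in pUC19 and between 1 and 6 reads in each fusion library. The HEK293-related markers PAX2, NEFL, NEFM, VIM and LIN28B were present in every library, and the endothelial gene CDH5 and the fibroblast gene COL1A2 had no reads in any. Among these markers NEFL and NEFM stood at 90.7 and 193 TPM in pUC19, above the 28.9 to 35.6 and 34.3 to 60.2 TPM of the fusions. TPM, a measure of transcript abundance, is the read count divided by transcript length and scaled to the same sum in every library.

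Very long mRNAs mostly encode giant proteins. These proteins tie the cytoskeleton to membranes, walk along microtubules, span the membrane as adhesion receptors, or join ubiquitin to other proteins. Others encode an ordinary protein and carry a very long 3′ untranslated region, and a few are long RNAs without a coding part. A long transcript gathers more reads than a short one at the same TPM, and it needs an unbroken RNA if reads are to come from its whole length.

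By the GENCODE transcript nearest in length, 109 members were mostly coding (at least 50% of the bases), 58 were mostly untranslated, 4 had no coding part annotated, and 12 had no transcript of like length. The median GC content was 46.1% in the mostly coding class and 42% in the mostly untranslated one. These classes were drawn after the values had been seen.

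The 183 members took a small and similar part of each library. They received 1.48% of the reads in DNMT1 (95% Wilson interval 1.47% to 1.48%) and 1.27% in DNMT3A (1.26% to 1.27%). In DNMT3B they received 1.48% (1.48% to 1.49%), in EGFP 1.69% (1.69% to 1.70%) and in pUC19 1.40% (1.40% to 1.40%). DNMT3A was thus lowest and EGFP highest, by more than the counting error, which is all that these intervals cover. The summed TPM of the members followed the same order at both ends, with 2006 in DNMT3A and 2674 in EGFP, and was 2222 in DNMT1, 2447 in DNMT3B and 2170 in pUC19. In each library between 131 and 134 members reached 1 TPM, between 57 and 72 reached 10 TPM, and between 2 and 7 had no read.

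MKI67, the proliferation antigen Ki-67 that coats mitotic chromosomes, had the highest mean level of all members. Its gene lies on chromosome 10 between 129894923 and 129924687 (GRCh37). It measured 138 TPM in DNMT1, 235 in DNMT3A, 265 in DNMT3B, 218 in EGFP and 107 in pUC19. The control was the lowest library, and DNMT1 lay nearer to it than to the other fusions. Against pUC19, MKI67 passed the test in DNMT3A, DNMT3B and EGFP, with log2 ratios of 1.14, 1.31 and 1.03, and its ratio in DNMT1 was 0.37. HUWE1, an E3 ubiquitin ligase on the X chromosome, came next with 108 to 145 TPM, and its values in the 5 libraries stayed within a narrow range. PRKDC encodes the catalytic subunit of DNA-dependent protein kinase, which acts in the joining of broken DNA ends. PRKDC measured 159 TPM in DNMT1, 60.4 in DNMT3A, 75.2 in DNMT3B, 173 in EGFP and 160 in pUC19. The DNMT3A and DNMT3B libraries lay well under the other 3, which were close together. DYNC1H1, the heavy chain of cytoplasmic dynein, measured 124, 66.2, 87.9, 149 and 94.1 TPM in the same order. USP9X, a deubiquitinase, measured 99.95, 70.9, 82.7, 121 and 96.5 TPM, and DNMT3A was again the lowest library. In libraries of mixed cells, fewer cells that express a gene and less of its RNA per cell cannot be told apart.

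**Figure D1:**
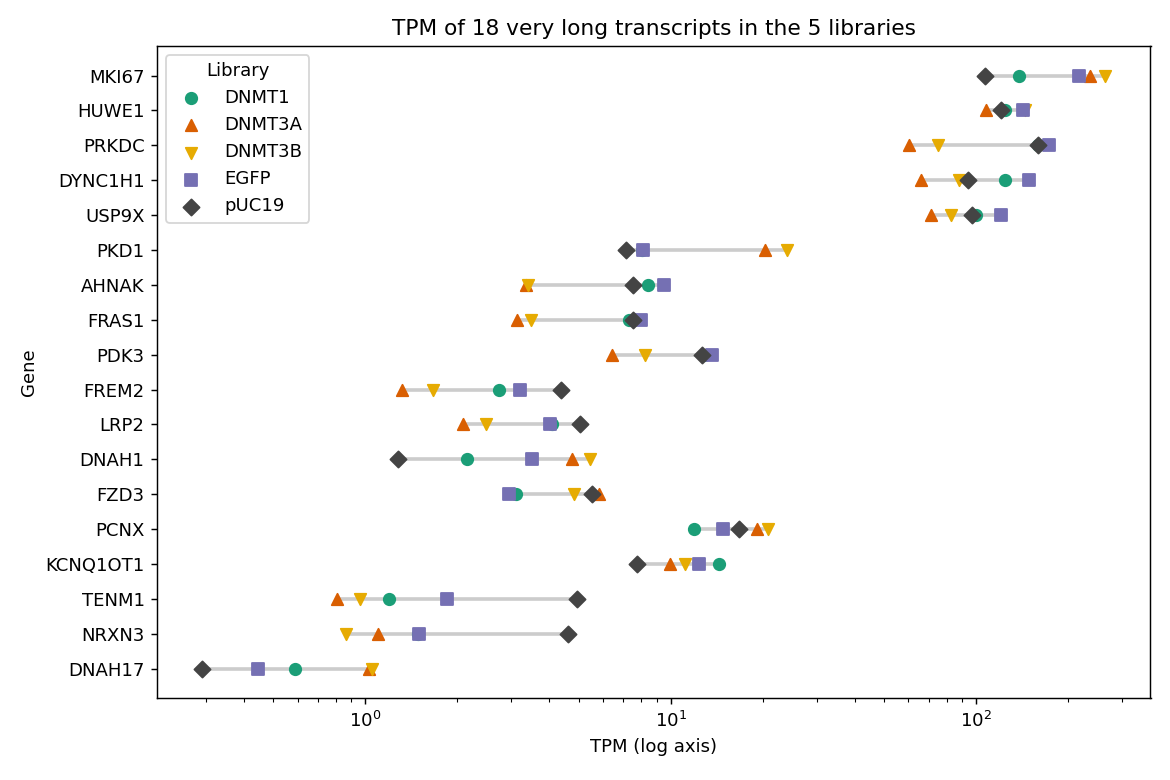
TPM (log axis) of 18 named members, 1 row per gene and 1 symbol per library; grey bars join the lowest and the highest library. DNMT3A and DNMT3B sit apart from the other libraries for PRKDC, AHNAK and FRAS1 (lower) and for PKD1 (higher), and pUC19 sits apart for TENM1 and NRXN3.

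AHNAK encodes a giant scaffold protein beneath the plasma membrane. Its gene lies on chromosome 11 between 62201014 and 62323707 on the minus strand (GRCh37), and its transcript of 18836 bases is 94.2% coding. It had 1958 reads in DNMT1, 803 in DNMT3A, 725 in DNMT3B, 2015 in EGFP and 2258 in pUC19. These correspond to 8.40, 3.35, 3.42, 9.47 and 7.52 TPM. DNMT3A and DNMT3B lay under all the other libraries and next to each other. Against pUC19 the log2 ratio was -1.14 in DNMT3A (adjusted p = 2.75e-99, exact conditional binomial test on the reads) and -1.11 in DNMT3B (adjusted p = 2.46e-98). It was 0.16 in DNMT1 and 0.33 in EGFP, under the fold of 2 that a call required.

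The members whose levels across the 5 libraries were most like those of AHNAK were FRAS1, PRKDC, PDK3, LRP2 and FREM2. Likeness was the Euclidean distance of log2(TPM + 0.1) values centred over the libraries, and it was 0.24 for FRAS1, 0.26 for PRKDC, 0.57 for PDK3, 0.65 for LRP2 and 0.70 for FREM2 among 131 other members of 1 TPM or more. FRAS1 and FREM2 encode extracellular matrix proteins that act together under epithelia. FRAS1 measured 7.32 TPM in DNMT1, 3.14 in DNMT3A, 3.49 in DNMT3B, 7.98 in EGFP and 7.53 in pUC19. FREM2 measured 2.73, 1.32, 1.66, 3.21 and 4.36 TPM in the same order. In both genes DNMT3A and DNMT3B were the lowest libraries, but for FREM2 the pUC19 control stood highest. PDK3 encodes a kinase that switches off pyruvate dehydrogenase, and its transcript is 88.9% 3′ untranslated region. It measured 12.8, 6.40, 8.23, 13.7 and 12.6 TPM. LRP2, the endocytic receptor megalin, measured 4.09, 2.09, 2.48, 4.01 and 5.03 TPM.

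The 250 bases before the start sites of 4 named members are shown, because CpG sites are what DNA methyltransferases act on. AHNAK and FRAS1 were lower with DNMT3A and DNMT3B, PKD1 and DNAH1 higher. The sequences are RefSeq's (GRCh38.p14), written 5′ to 3′ on the strand of the gene, with every CG in capitals; the positions are chr11:62545827-62546076 (minus strand), chr4:78057073-78057322 (plus), chr16:2135899-2136148 (minus) and chr3:52316069-52316318 (plus).
AHNAK: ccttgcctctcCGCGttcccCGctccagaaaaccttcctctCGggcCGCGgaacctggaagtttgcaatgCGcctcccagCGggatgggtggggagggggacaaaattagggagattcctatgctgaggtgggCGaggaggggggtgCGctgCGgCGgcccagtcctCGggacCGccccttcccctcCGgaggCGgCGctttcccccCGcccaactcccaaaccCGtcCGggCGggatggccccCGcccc
FRAS1: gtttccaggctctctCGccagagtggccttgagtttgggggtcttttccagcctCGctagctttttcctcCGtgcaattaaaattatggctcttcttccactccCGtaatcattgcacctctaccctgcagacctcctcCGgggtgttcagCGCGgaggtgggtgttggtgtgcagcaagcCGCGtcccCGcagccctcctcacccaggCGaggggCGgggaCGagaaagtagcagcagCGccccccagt
PKD1: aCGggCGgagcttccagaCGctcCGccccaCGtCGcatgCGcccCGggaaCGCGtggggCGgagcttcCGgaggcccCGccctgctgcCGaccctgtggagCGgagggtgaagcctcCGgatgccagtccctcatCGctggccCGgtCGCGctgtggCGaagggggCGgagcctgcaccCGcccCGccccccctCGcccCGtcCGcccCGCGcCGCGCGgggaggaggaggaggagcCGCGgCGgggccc
DNAH1: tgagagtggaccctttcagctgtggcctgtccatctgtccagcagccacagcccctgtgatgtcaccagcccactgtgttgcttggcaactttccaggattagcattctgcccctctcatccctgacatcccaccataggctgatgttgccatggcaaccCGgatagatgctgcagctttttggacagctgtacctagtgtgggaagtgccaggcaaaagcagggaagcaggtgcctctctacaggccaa
These windows hold 22, 14, 35 and 1 CG, in that order. Over the 14744 genes with such an entry the median was 19, and 98.1% held at least 1 CG. The 4 genes were a choice among the named members, so no link between CG count and direction can be read from them, and none was tested. Methylation was not measured in these libraries. Only 142 of the 183 members had an entry, so no count over the members is given.

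Among the fusions, DNMT3A and DNMT3B were compared with DNMT1 and EGFP. More of the members were lower than higher with the de novo methyltransferases, while more of all genes were higher. This grouping was known from earlier results on these data when it was chosen, and the values of AHNAK and PKD1 had been seen. Of 168 members tested by edgeR's quasi-likelihood test, 26 were lower with DNMT3A and DNMT3B, or 15.5%, and 8 were higher, or 4.76%, at an adjusted p under 0.05. Over all 15332 genes tested, 4.15% were lower and 6.9% were higher. The median log2 change was -0.17 over the members and -0.01 over all genes. With an offset for GC content and length in the fit, 22 members were lower and 16 higher, or 23.0% called against 14.7% of all genes, and the medians became -0.04 over the members and -0.03 over all genes. The offset takes out trends with length, and length chose the members. Medians close together therefore follow by construction and are not a result. The spread in this test is that between different constructs, which stand in for replicates.

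AHNAK had the smallest p of the members that fell, with a log2 change of -1.45 ± 0.13 (SE, 2 libraries against 2, adjusted p = 0.00235). PRKDC followed with -1.35 ± 0.14 (adjusted p = 0.00235), FRAS1 with -1.26 ± 0.14 (adjusted p = 0.00294), PDK3 with -0.91 ± 0.15 (adjusted p = 0.00921) and FREM2 with -1.05 ± 0.18 (adjusted p = 0.00977). DYNC1H1 (-0.88), LRP2 (-0.89), UTRN (-0.83), MDN1 (-0.65) and USP9X (-0.57) were also lower. UTRN encodes utrophin, a relative of dystrophin, and MDN1 an ATPase of ribosome assembly. Other members that fell, named after their values had been seen, include the huntingtin gene HTT (-0.54), the DNA damage kinase gene ATM (-0.58) and the endocytic receptor gene LRP1 (-0.82).

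PKD1, which encodes polycystin-1, a membrane protein of primary cilia, had the smallest p of the members that rose, with 1.40 ± 0.14 (adjusted p = 0.00235). It measured 8.04 TPM in DNMT1, 20.3 in DNMT3A, 24.1 in DNMT3B, 8.10 in EGFP and 7.15 in pUC19, so both de novo fusions stood far above the rest. PKD1 lies on chromosome 16 between 2138709 and 2185899 (GRCh37) and has near-identical pseudogene copies, so unique reads can miss part of it and its level is uncertain. FZD3, a Wnt receptor, changed by 0.75 ± 0.16 (adjusted p = 0.0232), and PCNX, a membrane protein related to Drosophila pecanex, by 0.52 ± 0.13 (adjusted p = 0.0338). FZD3 measured 3.11, 5.81, 4.80, 2.96 and 5.51 TPM in DNMT1, DNMT3A, DNMT3B, EGFP and pUC19, so that the control stood with the 2 de novo fusions. DNAH1 (0.80 ± 0.20, adjusted p = 0.0347) and DNAH17 (0.94 ± 0.26, adjusted p = 0.0474) encode axonemal dynein heavy chains of cilia and flagella. AKAP13, NAV1 and ZXDC were the remaining members that rose, by 0.50 to 0.54. MKI67 changed by 0.45 and did not pass (adjusted p = 0.135).

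The number of calls changed with the libraries in the fit, among all genes as among the members. Without the DNMT3A library 1 member (0.588%) and 0.114% of all genes passed, and without DNMT3B 5 members (2.96%) and 0.336% of all genes. Without DNMT1 59 members (34.9%) and 22.5% of all genes passed, and without EGFP 57 members (33.5%) and 24.7%. The change of AHNAK stayed between -1.47 and -1.43 whichever library was left out, although its adjusted p by edgeR's quasi-likelihood test was 0.0544 without DNMT3A. PRKDC changed by -1.20 without DNMT3A (adjusted p = 0.0771).

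**Figure D2:**
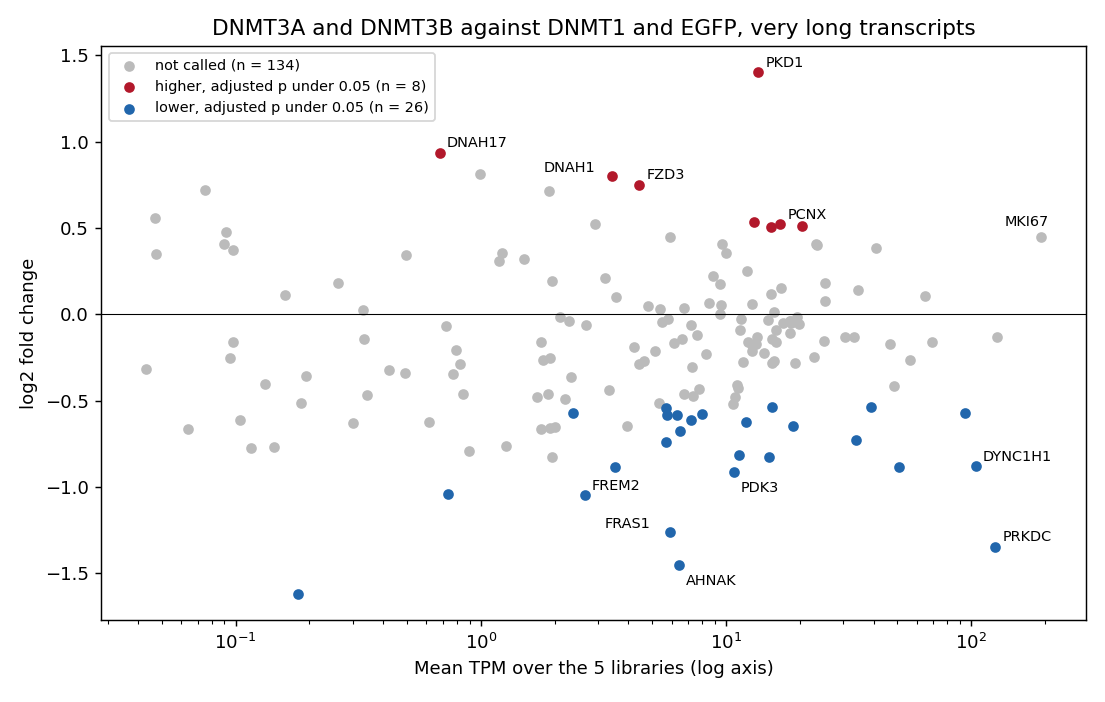
log2 fold change from edgeR's quasi-likelihood fit (DNMT3A and DNMT3B against DNMT1 and EGFP) against the mean TPM over the 5 libraries (log axis), 1 point per member tested. Blue points are the 26 members that were lower and red points the 8 that were higher; PKD1 lies at the top, AHNAK, PRKDC and FRAS1 lie near the bottom, and the lowest point, at under 1 TPM, is KSR2 (-1.62).

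Compared to the pUC19 control, 6 members were called in DNMT1, 22 in DNMT3A, 24 in DNMT3B and 13 in EGFP. A call required an adjusted p of at most 0.001 in the exact conditional binomial test and a fold of at least 2 in TPM + 0.1. In DNMT1, 1 of 181 members was higher (0.552%, against 1.61% of all genes) and 5 were lower (2.76%, against 3.67%). With TMM scaling of the library sizes, which raised the DNMT1 median over all genes from -0.15 to -0.03, the split became 4 higher and 4 lower. These were 8 of 181 members, beside 886 of 19022 genes (4.66%). In DNMT3A, 7 of 182 were higher (3.85%, against 4.44%) and 15 lower (8.24%, against 5.01%). In DNMT3B, 14 of 180 were higher (7.78%, against 4.51%) and 10 lower (5.56%, against 4.37%). In EGFP, 8 of 180 were higher (4.44%, against 2.65%) and 5 lower (2.78%, against 3.13%). The shares of members exceeded those of all genes most for lower calls in DNMT3A and for higher calls in DNMT3B. The 4 comparisons share the pUC19 library.

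Of the 183 members, 147 were called in none of the fusions (80.3%, against 85% of all 19716 genes), 17 in 1 (9.29%, against 6.89%), 12 in 2 (6.56%, against 4.5%), 4 in 3 (2.19%, against 1.98%) and 3 in all 4 (1.64%, against 1.62%). No member was called higher in one fusion and lower in another, but opposite calls were not counted over all genes. The shared pUC19 library can also push the 4 comparisons the same way. The 3 members called in all 4 were lower each time, namely NRXN3, TENM1 and DNAH3, and 1.18% of all genes were lower in all 4 as well. NRXN3 encodes a presynaptic adhesion protein and TENM1 a transmembrane protein of developing neurons. NRXN3 had 240, 182, 127 and 220 reads in DNMT1, DNMT3A, DNMT3B and EGFP and 956 in pUC19, or 1.49, 1.10, 0.867, 1.5 and 4.61 TPM. TENM1 had 191, 133, 140 and 270 reads in the fusions and 1011 in pUC19, or 1.2, 0.809, 0.963, 1.85 and 4.91 TPM. In both genes every fusion lay far under the control. DNAH3, an axonemal dynein heavy chain, had only 3, 8, 5 and 7 reads in the fusions and 50 in pUC19. No member was called higher in all 4 fusions, against 0.446% of all genes.

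In the fit of the 4 fusions together against pUC19, only NRXN3 (-1.84 ± 0.31, adjusted p = 0.0442) and TENM1 (-1.98 ± 0.36, adjusted p = 0.0481) passed edgeR's quasi-likelihood test. That is 1.16% of 173 members lower and 0 higher, against 0.644% and 0.0937% of the 16001 genes tested. Of the 173 members, 42 had an unadjusted p under 0.05 in this test. The share of all genes under that limit was not counted, so nothing about the members can be read from it. The control is 1 library, so the spread in this fit comes from the fusions alone. NRXN3 lost its call without DNMT3A (adjusted p = 0.0534) or EGFP (adjusted p = 0.0565), and TENM1 without DNMT1 (adjusted p = 0.066). DESeq2 called 17 members, 13 of them higher, which is 10.9% of the members it tested against 7.10% of all genes.

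Grouped by function, the cytoskeletal linkers (15 members) included MACF1, which cross-links actin and microtubules. It measured 13.6 to 17.9 TPM and was called in no fusion. EPPK1, epiplakin, an intermediate filament linker, rose in DNMT1, DNMT3A and DNMT3B by 1.10, 1.33 and 1.26 on the log2 scale, and its ratio in EGFP was 0.78. NEB, which encodes nebulin, a giant protein of muscle sarcomeres, rose in EGFP by 1.01 from a level far below 1 TPM. It was not called in DNMT1, DNMT3A or DNMT3B, where its log2 ratios were 0.89, 0.52 and 0.57. Between DNMT1 and EGFP its log2 ratio was -0.12 (adjusted p = 0.808, exact conditional binomial test). Between the de novo and the other fusions NEB changed by -0.77 and did not pass (adjusted p = 0.152, edgeR's quasi-likelihood test). AHNAK2, the paralog of AHNAK, fell in DNMT3A (-1.69) and DNMT3B (-1.36), and its log2 ratios in DNMT1 and EGFP were -0.92 and -0.83. In the comparison of the 2 de novo fusions with DNMT1 and EGFP, 3 of the 15 were lower and 0 higher, with a median log2 change of -0.29. Over the whole set 15.5% were lower and 4.76% higher, and over all genes 4.15% and 6.9%.

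The dynein heavy chains (15 members) split between cytoplasmic and axonemal genes. DYNC1H1 was called against pUC19 in no fusion. DYNC2H1, the motor of transport inside cilia, measured 14.1, 10.3, 12.0, 17.2 and 23.5 TPM, and it fell in DNMT3A by 1.18 on the log2 scale. Its log2 ratio in DNMT3B was -0.96, just short of the fold of 2. DNAH1 measured 2.15 TPM in DNMT1, 4.75 in DNMT3A, 5.43 in DNMT3B, 3.52 in EGFP and 1.28 in pUC19. It was higher than the control in every fusion and was called in DNMT3A (1.82), DNMT3B (2.01) and EGFP (1.40). DNAH17 rose in DNMT3A (1.52) and DNMT3B (1.55) from 64 reads in pUC19. Apart from DNAH3 above, the other axonemal genes were not called, and the highest of them was DNAH14 with 2.59 to 3.97 TPM. The median log2 ratio of the list was below 0 in each fusion, between -0.49 and -0.13.

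The chromatin and transcription regulators (11 members) lay mostly above the control. In DNMT3B all 11 had a log2 ratio above 0, with a median of 0.62 against -0.05 over all genes. While 4.51% of all genes passed as higher, 4 of the 11 did. These were the histone H3 lysine 4 methyltransferase genes KMT2A (1.29), KMT2C (1.04) and KMT2D (1.05) and the transcription factor gene ZFHX3 (1.18). KMT2A measured 33.4 TPM in DNMT1, 44 in DNMT3A, 59.5 in DNMT3B, 43.2 in EGFP and 24.2 in pUC19, so the control was lowest and DNMT3B highest. The medians in the other fusions were 0.25 in DNMT1, 0.50 in DNMT3A and 0.58 in EGFP, and no gene of the list was called there. SPEN, a transcriptional repressor (55.1 to 78.4 TPM), and TRRAP, a scaffold of histone acetyltransferase complexes (37.7 to 58.8 TPM), were the most abundant of them.

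Of the 8 giant ubiquitin ligases, which include HUWE1 and UBR4 (43.9 to 71.6 TPM), 0 were called in any comparison. All 8 were lower in DNMT3A than in DNMT3B, with a median log2 ratio of -0.35. This was not particular to the ligases, as 145 of 182 members were lower there. All 11 chromatin and transcription regulators were lower too, with a median of -0.39. Of the PI3K-like kinases, PRKDC fell in both DNMT3A (-1.40) and DNMT3B (-1.09) and ATM in DNMT3A (-1.02). The log2 ratio of ATM in DNMT3B was -0.99, just short of the fold of 2. SMG1, a kinase of nonsense-mediated decay with near-identical copies in the genome, measured 19.2 to 31.0 TPM and was not called. Of the 6 BEACH and VPS13 family genes, which serve autophagy and lipid transfer, WDFY3 rose in DNMT3B (1.03) and EGFP (1.00), and the EGFP call was lost with TMM scaling. VPS13D measured 7.54 to 10.2 TPM and was not called.

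Against pUC19, 5.01% of all genes were lower and 4.44% higher in DNMT3A, and 4.37% and 4.51% in DNMT3B. Of the 24 giant adhesion receptors and matrix genes, 23 were tested in each, with 4 lower and 2 higher in DNMT3A and 2 of each in DNMT3B. The lower ones were FRAS1 and FREM2 in both fusions and LRP2 and HMCN1 in DNMT3A. In DNMT3B the log2 ratios of LRP2 and HMCN1 were -0.99 and -0.41, under the fold of 2. The higher ones were PKD1 and TNXB, the tenascin-X gene, in both fusions. TNXB rose in EGFP as well (1.37), from 40 reads in pUC19 to 97. TNXB has a partial near-identical copy, so its level is uncertain. FAT1, a giant cadherin, had the highest mean level of the list with 12.7 to 16.9 TPM and was not called. Between the de novo fusions and the other fusions, 5 members of the list were lower and 1 higher, with a median of -0.31 over the 17 tested. Over the whole set 15.5% were lower and 4.76% higher, and over all genes 4.15% and 6.9%.

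Of the 3 mitosis and centrosome genes, MKI67 rose in 3 fusions while ALMS1, a centrosomal protein gene, fell in DNMT1 (-1.21) and EGFP (-1.12). ALMS1 measured 6.65, 8.63, 10.3, 7.08 and 15.6 TPM, and the control was the highest library. The silencing factor gene TNRC6B measured 18.8, 17.2, 20.9, 26.1 and 12.4 TPM and rose in EGFP (1.06). The calcium channel genes, with ITPR2 (4.20 to 7.18 TPM) and CACNA1C (0.587 to 1.40 TPM) as the most abundant, were not called against pUC19. Nor were the synapse scaffold genes BSN (2.10 to 4.02 TPM) and PCLO (1.84 to 3.02 TPM) or MDN1 (13.2 to 24.6 TPM).

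**Figure D3:**
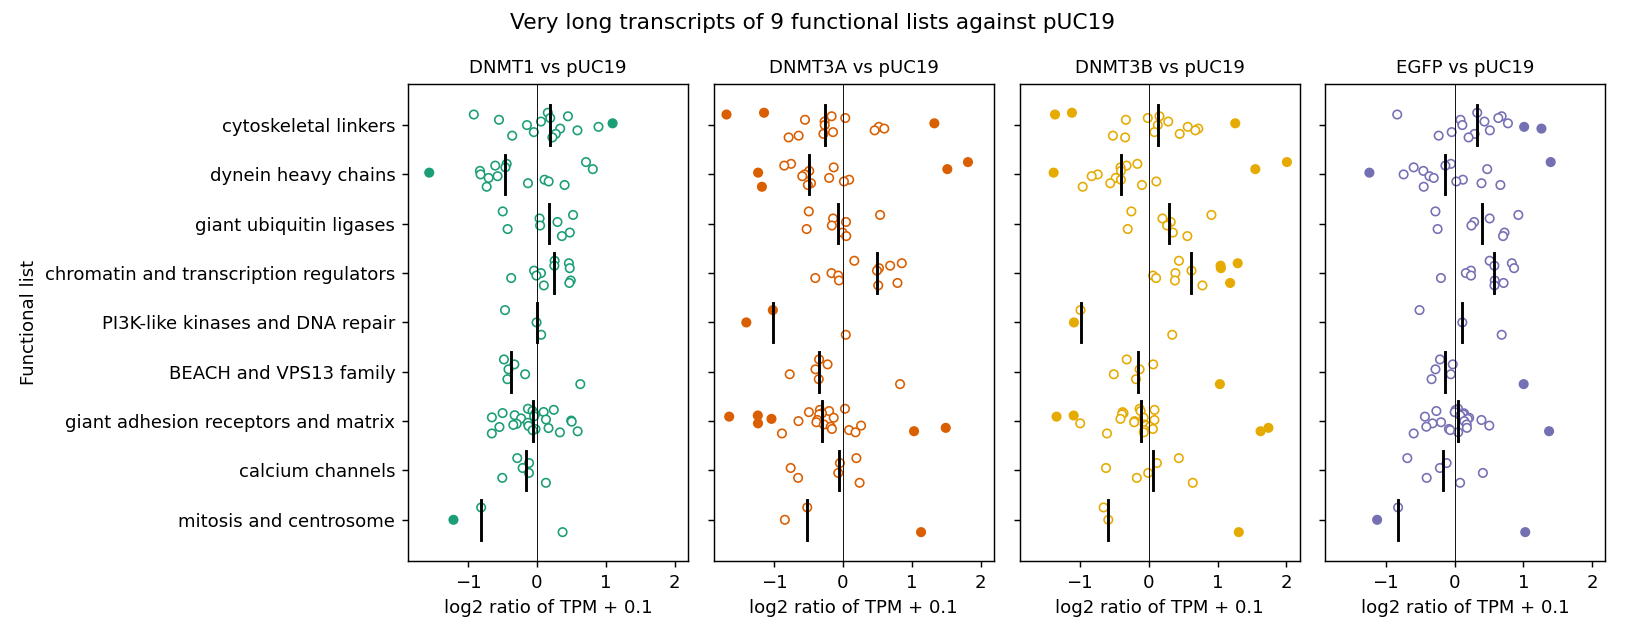
log2 ratio of TPM + 0.1 to pUC19 for the members of the 9 functional lists with 3 or more members, 1 panel per fusion and 1 point per gene; filled points were called and black bars are list medians. The chromatin and transcription regulators lie above 0 in DNMT3B, all 11 of them, and the dynein heavy chains have medians below 0 in every panel.

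The longest members with 100 reads or more differed widely in level. TTN, titin, the spring of the sarcomere, spans 109224 bases and had 243, 181, 185, 254 and 451 reads in DNMT1, DNMT3A, DNMT3B, EGFP and pUC19, or 0.130 to 0.259 TPM. KCNQ1OT1, a nuclear RNA of 91671 bases transcribed antisense to KCNQ1 from an imprinted locus, measured 14.4, 9.96, 11.1, 12.4 and 7.76 TPM, and the control was the lowest library. Its log2 ratios of 0.36 to 0.89 did not reach the fold of 2. The strand of the libraries was not stated, so reads of KCNQ1OT1 and of TSIX (1.85 to 2.67 TPM) cannot be told apart from those of the genes they overlap. ANKRD20A9P, a pseudogene with near-identical copies, measured 3.27 to 4.87 TPM. SYNE1, nesprin-1, which links the nucleus to the cytoskeleton, measured 2.11 to 2.49 TPM, close to even across the 5 libraries.

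No member passed both thresholds between the DNMT3A and DNMT3B libraries, in which 0.134% of all genes were higher and 0.107% lower. Of 182 members, 145 were lower in DNMT3A than in DNMT3B, 37 were higher, and 68 of the 182 passed the adjusted p of 0.001 without the fold (37.4%, against 14.4% of all genes). The median log2 ratio was -0.22 over the members and -0.02 over all genes. Between DNMT1 and EGFP 0 members were called as well, with 0.483% of all genes higher and 0.993% lower, and the medians were -0.20 over the members and -0.13 over all genes.

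These shifts ran with length through the whole table. Among genes of 1 TPM or more in either library, the median log2 ratio of DNMT3A to DNMT3B was 0.06 under 1 kb, 0.05 at 1 to 2 kb, 0.01 at 2 to 4 kb, -0.08 at 4 to 8 kb, -0.16 at 8 to 12 kb and -0.24 at 12 kb or more. The quartiles of the last group were -0.36 and -0.12, so that more than 3 in 4 of these transcripts were lower in DNMT3A. The ratio of DNMT1 to EGFP was -0.04 under 1 kb, -0.02 at 1 to 2 kb, -0.13 at 2 to 4 kb, -0.21 at 4 to 8 kb, -0.23 at 8 to 12 kb and -0.24 at 12 kb or more. The ratio of DNMT1 to pUC19 stayed between -0.16 and -0.12 up to 8 kb and was -0.08 at 8 to 12 kb and -0.01 at 12 kb or more. The ratio of EGFP to pUC19 also ended higher, going from -0.07 under 1 kb and -0.09 at 1 to 2 kb to 0.20 at 12 kb or more. In DNMT3B it went from -0.20 under 1 kb to 0.09 at 8 to 12 kb and 0.08 at 12 kb or more against pUC19, while the ratio of DNMT3A to pUC19 was -0.15 under 1 kb, 0.01 at 2 to 4 kb and -0.16 at 12 kb or more. Differences in the RNA or the library that act through length cannot be told apart from the constructs here, as each construct had 1 library.

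Coverage, the percent of a transcript given by the authors as covered, was read here as the part with at least 1 read. Among the 137 members with a mean of 10 or more reads per kb, the median coverage was 84.7% in DNMT1, 81.6% in DNMT3A, 83.4% in DNMT3B, 84.8% in EGFP and 88.8% in pUC19, the deepest library. At least 90% of the transcript was covered in every library for 40 of these members. UBR4, HECTD4, DYNC1H1, MDN1 and SPEN had the highest means, each over 98% in all 5 libraries. For AHNAK the values were 93.5%, 86.3%, 84.6%, 92.8% and 94.3% in DNMT1, DNMT3A, DNMT3B, EGFP and pUC19, lower where its reads were fewer. At 50 to 150 reads per kb, members were covered much as shorter genes were. In pUC19 the median was 84.9% for 46 members and 81.8% for 975 genes of 2 to 4 kb, and in DNMT3A it was 81.2% for 49 members and 82.7% for 990 such genes.

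Coverage differed more between the classes of transcript. In pUC19 the median was 93.9% over 79 mostly coding members and 85.8% over 46 mostly untranslated ones, at medians of 144 and 159 reads per kb. In DNMT3A it was 88.8% and 75.7%, at 109 and 112 reads per kb. The next comparison was chosen after the values had been seen. Among members whose reads per kb in DNMT3A lay within 20% of those in pUC19, 13 of 15 mostly untranslated ones were covered less in DNMT3A (median difference -8.59 percentage points), as were 6 of 12 mostly coding ones. In DNMT3B the same held for 14 of 16 mostly untranslated members (-4.42 points) and 9 of 18 mostly coding ones. In DNMT1 10 of 13 mostly untranslated members (-3.10 points) and 21 of 35 mostly coding ones (-0.52 points) were covered less than in pUC19. In EGFP these were 9 of 11 (-2.88 points) and 23 of 32 (-1.16 points). Within the 20% allowed, the untranslated members still had fewer reads per kb than in pUC19 in DNMT1 (medians 144 and 172), DNMT3A (146 and 168) and DNMT3B (159 and 170.0), but not in EGFP (185 and 174). The GC content of the classes differs as given above, and its part in this difference was not tested.

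The members with the lowest mean coverage at this depth were CACNA1C, an L-type calcium channel gene (6.74% to 15.5%), KCNN3, a potassium channel gene (10.3% in EGFP and 43.9% in pUC19), HYDIN2 (22.3% to 24.5%), RNA45S5 (18.3% to 31.6%) and KCNQ1OT1 (25.5% to 40.2%). HYDIN2 is a near-identical copy of HYDIN and RNA45S5 is the repeated precursor of ribosomal RNA, which unique reads can cover only in part. A total of 10 members stayed under 50% in every library. Reads of such genes come from a part of the reference transcript, and dividing them by its full length lowers their TPM.

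**Figure D4:**
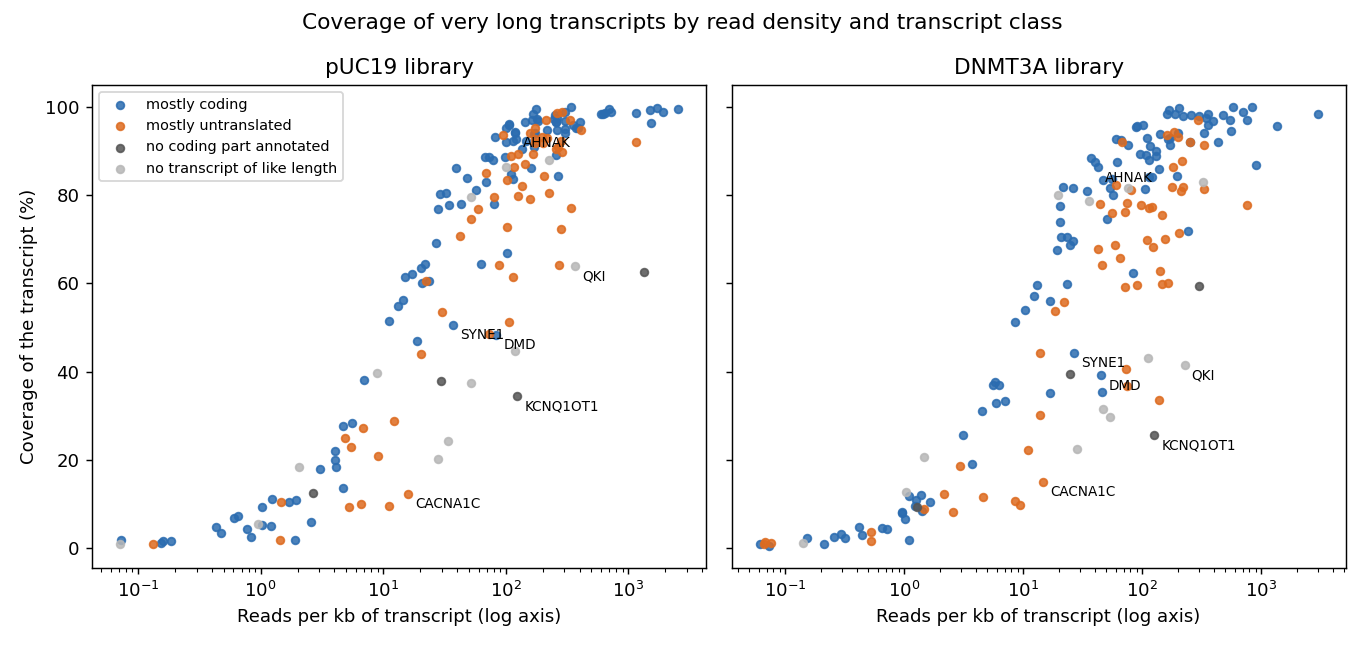
Coverage of each member (percent of the transcript) against its reads per kb (log axis) in the pUC19 and DNMT3A libraries, coloured by transcript class. Mostly coding members climb to near 100% with read density, while mostly untranslated ones and KCNQ1OT1 lie lower at the same density, more so in DNMT3A.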

How the data were processed

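RNA was fragmented, sequenced on an Ion Proton, and aligned by the authors with tmap to RefSeq RNA of hg19 (GRCh37). They kept unique reads with at most 3 mismatches; the versions were not given in the sources used here. The read counts per gene deposited by the authors are whole numbers without normalization. The deposited TPM values are these counts divided by transcript length and scaled per library, and recomputing them gave the same values. The deposited coverage in percent was not defined by the authors. Unique counting lowers genes with near-identical copies.

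Genes absent from a table were set to 0 reads. For each pair of libraries, the reads of a gene were tested by an exact binomial test, two-sided and conditional on both totals (scipy 1.17.1), adjusted by Benjamini-Hochberg over all genes with a read in either. The quasi-likelihood test of edgeR 4.0.16 (R 4.3.3) used TMM scaling and filterByExpr; its common coefficient of variation was 0.135 between the de novo and other fusions and 0.205 against pUC19. DESeq2 1.42.0 was an alternative. Ratios of TPM + 0.1 understate changes of low genes. Both tests were run on simulated counts. For the exact test these held counting error alone, and for edgeR's test a smaller spread than the fits gave. Such runs therefore cannot show how often the tests err between single libraries of different constructs. Positions and coding parts are from GENCODE on GRCh37 (180 of 183 members matched), and the promoters from RefSeq. Groups came from the sample titles.

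The set of genes, the functional lists and the tests were chosen with earlier results of these data known. Genes were named by rule: AHNAK and the 5 members most like it; the 5 highest in mean TPM; the 5 longest with 100 reads or more; per edgeR fit the 5 called with the smallest p in each direction; up to 5 per direction called in all 4 fusions; up to 3 per direction called between 2 fusions; the 2 highest of each list; and the 5 highest and lowest in coverage. Other called genes were named after their values had been seen. Values of some genes that the rule or the lists would name are not reported here.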

Additional observations from a re-analysis of the deposited data

Results flagged for a closer look

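Members of the set differed between the fusions. Of 168 members, 34 passed edgeR's quasi-likelihood test between DNMT3A and DNMT3B on one side and DNMT1 and EGFP on the other, 26 of them lower (15.5%, against 4.15% of all genes) and 8 higher (4.76%, against 6.9%). The 2 constructs on each side stood in for replicates. With an offset for GC content and length 38 members were called (23.0%, against 14.7% of all genes), of which 27 were among the 34. Groups of 1 library could not be searched for a library far from the others.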

How the results depend on the processing

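No paired analysis was possible because each group had 1 library and the labels give no replicate numbers. Assuming a coefficient of variation of 0.2 between libraries left 0 members called in DNMT1, 3 in DNMT3A, 3 in DNMT3B and 0 in EGFP against pUC19, and 0.205%, 0.717%, 0.617% and 0.308% of all genes. A pseudocount of 1 TPM left 3, 10, 13 and 6 members, in that order, and 2.86%, 6.03%, 5.86% and 3.39% of all genes. Of the 71 members of 15 kb or more, 2, 9, 11 and 4 were called by the main test, whose shares over all genes are given above. With TMM scaling 1 of 179 members passed between DNMT1 and EGFP, as did 1.42% of all genes. The median log2 ratio of the members to pUC19 turned from -0.0398 to 0.0848 in DNMT1 with TMM scaling and from 0.0111 to -0.0071 in DNMT3B among members of 15 kb or more. A pseudocount of 1 TPM moved the median to -0.15 for DNMT3A against DNMT3B and to -0.12 for DNMT1 against EGFP, and TMM scaling moved the latter to -0.0815. Between the de novo and the other fusions, 16 members (8.74%, against 5.43% of all genes) passed without the filter on low counts and 12 of 15 kb or more did. Leaving out 1 library gave 1 to 59, as described above by library. Of the fusions against pUC19, DESeq2 called 17 members, 0 of 15 kb or more passed, and leaving out 1 fusion gave 1 to 2. Limiting the fits to genes with a GC value, chosen after seeing the data, gave 35 members (21.2%, against 11.3% of all genes) and 2 (1.18%, against 0.732%). The share of reads was 0.508% in DNMT1, 0.415% in DNMT3A, 0.494% in DNMT3B, 0.574% in EGFP and 0.466% in pUC19 for members of 15 kb or more. Without MKI67, HUWE1, PRKDC, DYNC1H1 and USP9X it was 1.09%, 0.957%, 1.12%, 1.23% and 1.05%. The shorter list and the dropped genes explain these shares by construction; for the other changes the cause was not tested. A further 57 recomputed counts, medians and coverages stayed within the limits used, 1.5 times for a count and a 95% binomial interval for a median. For the named genes 274 recomputed changes kept the call, 92 kept the direction without the call, and 0 reversed. With 1 library per group, a difference specific to a construct cannot be told apart from one specific to its library.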
